A study of Drosophila melanogaster with 9 samples.

Results

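The genes described here are 8 core genes of the Drosophila circadian clock (per, tim, Clk, cyc, cwo, vri, Pdp1 and cry) together with Pdf, the neuropeptide gene of clock neurons, and Pdfr, its receptor gene. They were chosen by name, with earlier results of these data known. All 10 were found among the 17421 genes of the table. The series holds 3'-end reads counted per gene in dissected central nervous systems of 1st instar larvae kept at 25 °C, homozygous for their genotype and sorted by a visible marker. There were 3 genotypes with 3 libraries each: elav5/fne double mutants, which lack elav and fne, elav5 single mutants, which lack elav, and the wild-type strain Canton-S. Both mutations are deletion alleles of neuronal ELAV/Hu RNA-binding protein genes, and elav5/fne larvae carry the elav5 deletion as well. Neither the genetic background, the sex of the larvae, the time of day nor the light regime at dissection is given in the sources used here. Any of these, if unequal between genotypes, cannot be told apart from the genotypes themselves, and the phase of the clock in these larvae is unknown.

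In the fly clock, the CLK and CYC proteins form a dimer that binds E-box elements and switches on per, tim, vri, Pdp1 and cwo. PER and TIM return to the nucleus and repress CLK and CYC, while VRI represses and PDP1 activates Clk in an interlocked loop, and CRY is a blue-light photoreceptor that leads to the loss of TIM. In the larval brain the clock runs in a small number of lateral and dorsal neurons, and the ventral lateral neurons release the peptide PDF, which acts on a class B G protein-coupled receptor that raises cAMP. Several of these genes, Pdp1 and vri among them, are also used outside the clock, in muscle, fat body and growing tissues.

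Libraries held 15241461 to 18822734 reads in genes. Levels are given as normalised CPM, which are the deposited values divided by the mean library total and multiplied by 1e6. A log2 fold change is the difference of mean log2(normalised CPM + 1), so for low genes it is smaller than the true fold. The labels were checked with the deleted genes: elav averaged 45.3 ± 22.6 in elav5/fne and 31.2 ± 9.26 in elav5, against 1643 ± 68.3 in Canton-S, and fne averaged 375 ± 129.8 in elav5/fne, against 4696 ± 219 in elav5 and 5041 ± 546 in Canton-S (SD, n = 3 each). Summed over 7 neuronal markers, libraries held 5170 to 5979 normalised CPM in elav5/fne, 7413 to 8399 in elav5 and 7941 to 8556 in Canton-S. Summed levels of 5 neuroblast markers were 211 to 315 in elav5/fne, 48.8 to 58.0 in elav5 and 40.2 to 53.4 in Canton-S. Summed levels of 7 glial markers were 2198 to 2818 in elav5/fne, 2648 to 4214 in elav5 and 2565 to 2750 in Canton-S, and those of 6 ring gland markers were 62.5 to 88.6 in elav5/fne, 41.8 to 73.6 in elav5 and 114 to 170 in Canton-S. The eye colour gene w was at 233 ± 13.6 in elav5/fne, against 1.04 ± 0.747 in elav5 and 0.607 ± 0.356 in Canton-S (SD, n = 3 each), a gene that is not among the deleted ones. Markers of tissues beside the nervous system varied within genotypes: 11 muscle genes summed to 1619 to 8080 in elav5/fne, 621 to 6952 in elav5 and 684 to 852 in Canton-S, and the highest libraries were elav5/fne replicate 3 and elav5 replicate 1. The 8 gut markers were highest in the same libraries (999 and 726, against 6.35 to 181 elsewhere, with 1 to 4 markers at 0 in each library). The 6 fat body markers summed to 258 in Canton-S replicate 2 and to 0 to 3.28 in the other 8 libraries. Results on the 10 genes and on the pathway lists against Canton-S are therefore also given without elav5 replicate 1 and elav5/fne replicate 3 where that changes a call. No label states if the replicates are different animals, and the p-values speak for the spread among these libraries, part of which may be technical.

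The genes spanned a wide range of levels in Canton-S. Pdp1 was highest at 1551 ± 138 normalised CPM, followed by cwo at 149 ± 13.5, Pdf at 78.6 ± 2.90, cyc at 9.61 ± 1.98, per at 6.21 ± 0.594 and Pdfr at 2.87 ± 0.707. The lowest were vri at 1.81 ± 0.359, tim at 1.57 ± 0.284, cry at 0.623 ± 0.602 and Clk at 0.448 ± 0.171 (SD, n = 3). Neighbours in this order did not overlap between libraries down to vri, while the libraries of vri overlapped those of tim, those of tim overlapped those of cry, and those of cry overlapped those of Clk. Each read of this assay comes from a transcript's 3' end, so these levels need no division by gene length, but priming can differ between genes. Of the 10 genes, 9 averaged 1 normalised CPM or more and entered the test across 9384 genes. Clk did not, and cry, with a mean of 1.13, passed this filter only through its elav5/fne libraries, so neither adds to a count as support.

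**Figure D1:**
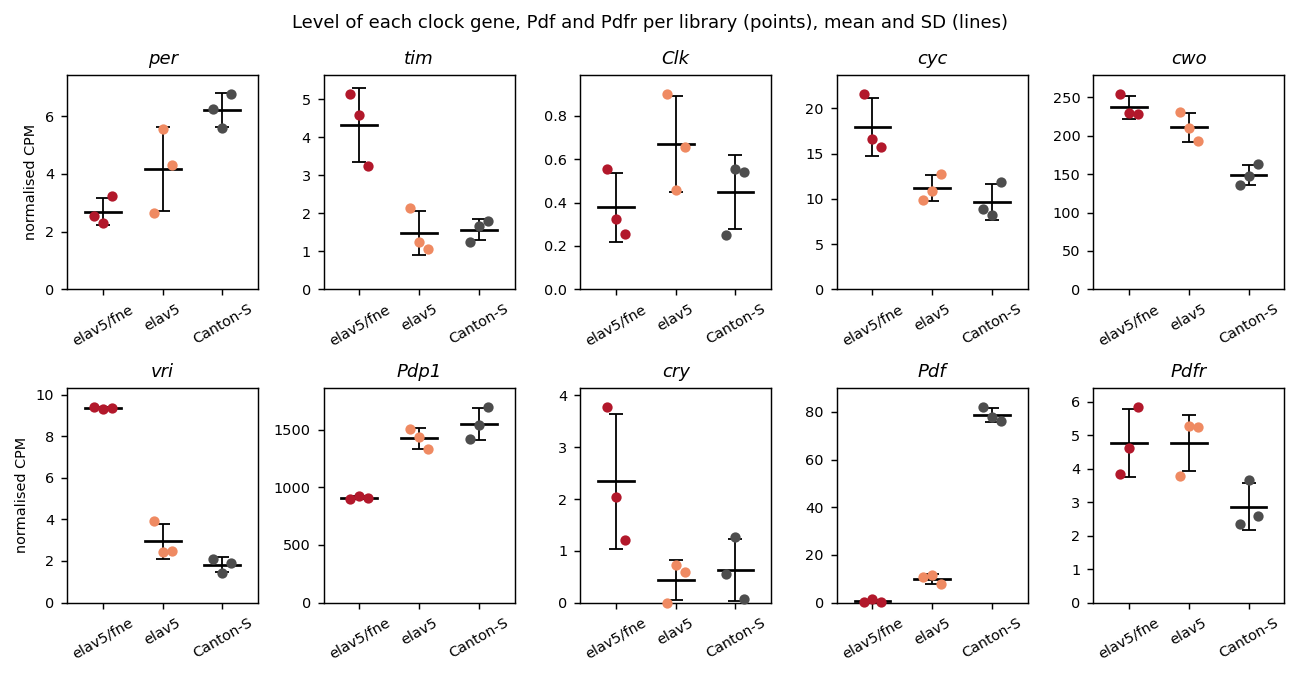
Normalised CPM of each of the 10 genes in every library (points), with the mean and SD of the 3 libraries of each genotype (lines), on linear axes that start at 0 and differ between panels. Pdf falls to 10.1 in elav5 and 0.552 in elav5/fne, against 78.6 in Canton-S, and vri sits between 9.31 and 9.40 in elav5/fne and at or below 3.92 in all other libraries.

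Comparing elav5/fne with Canton-S shows how these genes differ when both elav and fne are deleted. Pdf, per and Pdp1 were lower and tim, cyc, cwo and vri were higher in elav5/fne. Among the known targets of CLK and CYC, per and Pdp1 were thus lower and tim, cwo and vri higher. How much of their RNA in this bulk tissue comes from clock neurons was not tested. In all, 7 of the 9 tested genes were called at 0.05 in limma, with p-values adjusted over all 9384 genes by the Benjamini-Hochberg method, 4 of them higher and 3 lower. Of all tested genes 43.2% passed in this comparison, 25.8% as higher and 17.5% as lower. The 9 genes had a median log2 change of 0.67, beside 0.15 for all tested genes. The deposited scaling sets this last value, which was 0.02 under TMM scaling, where 2051 genes were higher and 2159 lower in place of 2418 and 1638. All 7 calls and their directions were the same under TMM, median of ratios and library total scaling. Comparing elav5 with Canton-S, where elav alone is deleted, gave 2 of 9 calls, Pdf lower and cwo higher, against 15.2% of all tested genes (8.17% as higher and 7.04% as lower). Comparing elav5/fne with elav5, which adds the loss of fne to that of elav, gave 5 of 9 calls, with tim, cyc and vri higher and Pdp1 and Pdf lower, against 30.8% of all tested genes (18.5% as higher and 12.3% as lower). Both comparisons against Canton-S share its 3 libraries, and both comparisons of elav5 share its libraries, so the values of a gene in them are not independent. Without elav5 replicate 1 and elav5/fne replicate 3, the same 7 genes passed in elav5/fne against Canton-S, the same 2 in elav5 against Canton-S, and 4 in elav5/fne against elav5, where cyc was lost. cry passed as well in elav5/fne against Canton-S, which makes 8 of 9, but as it entered the test only through its elav5/fne libraries it adds nothing to that count.

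**Figure D2:**
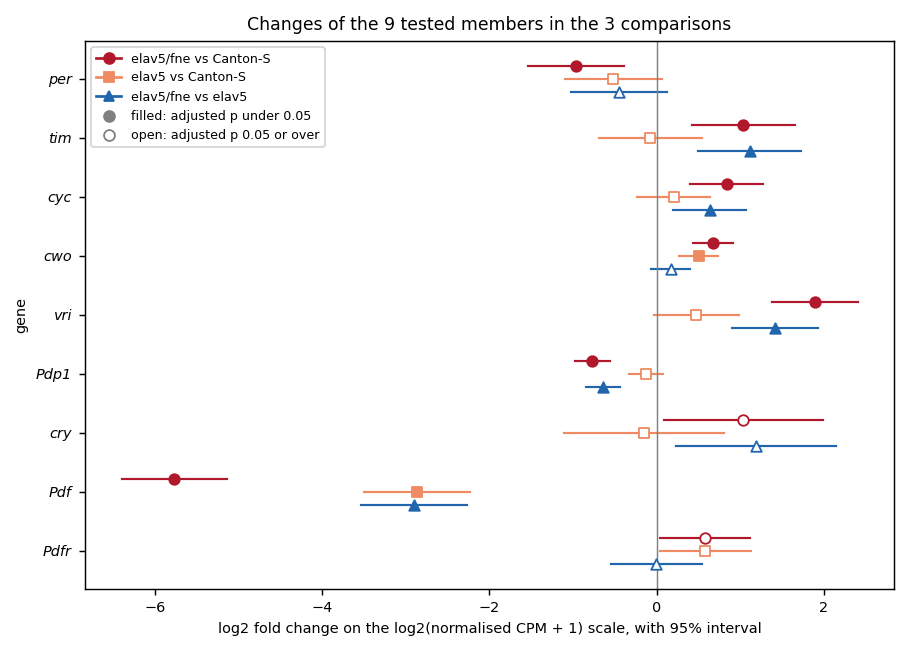
Log2 fold changes of the 9 tested genes with 95% intervals from the limma fit in elav5/fne against Canton-S, elav5 against Canton-S and elav5/fne against elav5, with filled symbols for an adjusted p under 0.05. The log2 changes of Pdf are -5.77, -2.87 and -2.90, while those of the other 8 genes lie between -0.97 and 1.89.

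Pdf (chromosome 3R, 26455462 to 26456141 on the minus strand, dm6), which encodes the precursor of the PDF peptide, was the most changed of the 10 genes. The 3 elav5/fne libraries held 3, 25 and 2 Pdf reads, the elav5 libraries 167, 179 and 118, and the Canton-S libraries 1635, 1544 and 1274. As normalised CPM these were 0.185, 1.35 and 0.127 in elav5/fne, 10.7, 11.7 and 7.73 in elav5, and 81.9, 77.7 and 76.3 in Canton-S. No library of a genotype overlapped another genotype, and the order was elav5/fne below elav5 below Canton-S. The mean in elav5/fne was 0.703% of Canton-S and 5.50% of elav5, and the mean in elav5 was 12.8% of Canton-S. Pdf fell by 5.77 on the log2 scale in elav5/fne against Canton-S (SE 0.28, limma adjusted p = 1.03e-06) and ranked 2 from the lowest among 9384 genes. It fell by 2.87 in elav5 against Canton-S (adjusted p = 0.000388, ranked 15) and by 2.90 in elav5/fne against elav5 (adjusted p = 6.92e-05, ranked 30). In elav5/fne, 25 of the 30 Pdf reads came from replicate 2, and replicates 1 and 3 were at or below 3 reads, which corresponded to 0.150 to 0.196 normalised CPM over all libraries. Floors and read counts cover counting error only. Without replicate 2 the elav5/fne mean was 0.199% of Canton-S and 1.55% of elav5. Because the elav5/fne level is near 0, the size of the log2 change depends on the pseudocount and the tool: over 20 alternatives it lay between -7.24 and -3.92 in elav5/fne against Canton-S and between -4.28 and -1.44 in elav5/fne against elav5. Pdf stayed past the threshold and lower under all 20 alternatives in each comparison. In bulk tissue, fewer PDF neurons and less Pdf RNA per neuron cannot be told apart.

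Pdfr (chromosome X, 2552206 to 2578640, plus strand), the PDF receptor gene, was low in all genotypes. Its libraries held 3.83, 4.63 and 5.84 normalised CPM in elav5/fne, 3.80, 5.29 and 5.24 in elav5, and 2.35, 3.67 and 2.58 in Canton-S. Every mutant library lay above every Canton-S library, as libraries did not overlap for 58.3% of all tested genes in elav5/fne against Canton-S and for 35.6% in elav5 against Canton-S. Between elav5/fne and elav5, where 43.8% of all tested genes did not overlap, the libraries of Pdfr did. The log2 changes were 0.58 in elav5/fne (95% interval 0.03 to 1.12, limma adjusted p = 0.0800) and 0.58 in elav5 (0.04 to 1.12, adjusted p = 0.137) against Canton-S, and neither passed. Between elav5/fne and elav5 the difference was -0.01 (95% interval -0.55 to 0.54), and its sign changed with the scaling to library totals.

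per (chromosome X, 2685580 to 2692780, plus strand) encodes the PERIOD repressor. Its levels were 2.53, 2.31 and 3.23 normalised CPM in elav5/fne, 2.64, 5.55 and 4.32 in elav5, and 6.26, 5.59 and 6.77 in Canton-S. Every elav5/fne library was below every Canton-S library, and elav5 replicate 1 stood with the elav5/fne libraries. per fell by 0.97 on the log2 scale in elav5/fne against Canton-S (SE 0.26, limma adjusted p = 0.0130). It did not pass in elav5 against Canton-S (log2 -0.52, 95% interval -1.09 to 0.06, adjusted p = 0.203) or in elav5/fne against elav5 (-0.45, -1.03 to 0.12, adjusted p = 0.219). With the muscle marker level of each library as a covariate, per no longer passed in elav5/fne against Canton-S (log2 -0.76, adjusted p = 0.128). On chromosome X, which also carries elav and fne, per lies 97.8 kb from w and 106.9 kb from Pdfr. w was far higher in elav5/fne than in the other genotypes. Any part of this chromosomal region in the per or Pdfr values was not tested. The last 49 bases of per overlap the 3' end of dyw, a gene of the takeout family on the opposite strand, and the strand setting of the authors' counting is unknown. dyw held 1.08 to 1.67 normalised CPM in elav5/fne, 1.37 to 3.15 in elav5 and 0.604 to 2.28 in Canton-S, and it did not pass in any comparison (log2 0.24 in elav5/fne and 0.46 in elav5 against Canton-S).

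tim (chromosome 2L, 3493986 to 3508119, minus strand) encodes TIMELESS, the partner of PERIOD. Its levels were 5.13, 4.57 and 3.23 normalised CPM in elav5/fne, 2.12, 1.24 and 1.05 in elav5, and 1.25, 1.66 and 1.80 in Canton-S. All 3 elav5/fne libraries lay above all others, and elav5 and Canton-S overlapped. tim rose by 1.04 on the log2 scale against Canton-S (SE 0.28, limma adjusted p = 0.0133) and by 1.11 against elav5 (adjusted p = 0.0136), while elav5 did not pass against Canton-S (-0.08, 95% interval -0.69 to 0.54, adjusted p = 0.873). Both tim calls rest on 51 to 85 reads in the elav5/fne libraries. The call against Canton-S was lost without elav5/fne replicate 2 (log2 0.99, adjusted p = 0.0507) and with the muscle covariate (0.92, adjusted p = 0.0982), and the call against elav5 was lost without elav5/fne replicate 1 or 2 (1.00 and 1.07, adjusted p = 0.0525 and 0.0524). The non-coding genes snoRNA:Or-CD16, on the same strand, and lncRNA:CR46495, on the opposite strand, overlap tim and were not analysed here.

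The opposite directions of per and tim can be given as a ratio within each library, which no scaling between libraries affects. This ratio, chosen after the values were seen, was 2.02, 1.98 and 1.00 tim reads for each per read in elav5/fne, 0.805, 0.224 and 0.242 in elav5, and 0.200, 0.297 and 0.265 in Canton-S. It averaged 1.67 ± 0.578 in elav5/fne and 0.254 ± 0.0496 in Canton-S (SD, n = 3 each). The exact two-sided permutation p was 0.1, the smallest value that 3 against 3 libraries allow. As tim and per each already separated these libraries, in opposite directions, this p was fixed in advance and adds no support. In elav5 it averaged 0.424 ± 0.330, and the exact p against Canton-S was 0.7.

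cyc and Clk encode the activator dimer. cyc (chromosome 3L, 19813770 to 19815938, minus strand) held 21.6, 16.6 and 15.7 normalised CPM in elav5/fne, 9.91, 10.8 and 12.7 in elav5, and 8.81, 8.15 and 11.9 in Canton-S. The elav5/fne libraries were above all others, and those of elav5 and Canton-S overlapped. cyc rose by 0.84 on the log2 scale in elav5/fne against Canton-S (SE 0.19, limma adjusted p = 0.00649) and by 0.63 against elav5 (adjusted p = 0.0338), and the call against elav5 was lost in 11 of 20 alternatives (adjusted p up to 0.123). These included TMM and median of ratios scaling, edgeR, DESeq2 and the fit without elav5 replicate 1, elav5 replicate 2, elav5/fne replicate 1 or elav5/fne replicate 2. In elav5 against Canton-S the log2 change was 0.20 (95% interval -0.23 to 0.64, adjusted p = 0.504). Clk (chromosome 3L, 7763233 to 7775603, minus strand) was near the floor, with 9, 6 and 4 reads in elav5/fne, 14, 7 and 10 in elav5, and 5, 11 and 9 in Canton-S. The genotypes overlapped, with exact two-sided permutation p = 1, 0.3 and 0.2 for elav5/fne against Canton-S, elav5 against Canton-S and elav5/fne against elav5. With 3 against 3 libraries this test cannot go below 0.1, so it could not have called any difference in Clk. The gene CG32371 overlaps Clk on the same strand and held 0 to 5 reads per library.

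cwo (chromosome 3R, 10388258 to 10400752, plus strand) encodes CLOCKWORK ORANGE, a basic helix-loop-helix repressor that competes at E-boxes. It held 254, 229 and 228 normalised CPM in elav5/fne, 231, 210 and 193 in elav5, and 136, 147 and 163 in Canton-S. Both mutants lay above Canton-S in every library and overlapped each other. cwo rose by 0.67 on the log2 scale in elav5/fne against Canton-S (SE 0.10, limma adjusted p = 0.000685). In elav5 against Canton-S it rose by 0.50 (adjusted p = 0.0126), and it was the only clock gene called higher in elav5. The elav5 call was lost without Canton-S replicate 1 (log2 0.44, adjusted p = 0.0564). Between elav5/fne and elav5 the difference was 0.17 (95% interval -0.06 to 0.40, adjusted p = 0.256).

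vri and Pdp1 encode basic leucine zipper factors of the interlocked loop, VRI a repressor and PDP1 an activator of Clk. vri (chromosome 2L, 5288944 to 5311223, plus strand) held 9.40, 9.31 and 9.39 normalised CPM in elav5/fne, 3.92, 2.42 and 2.49 in elav5, and 2.10, 1.41 and 1.92 in Canton-S. The elav5/fne libraries agreed closely and lay above all others. vri rose by 1.89 on the log2 scale in elav5/fne against Canton-S (SE 0.23, limma adjusted p = 0.000148) and by 1.42 against elav5 (adjusted p = 0.00135), and passed in all 19 alternatives in both. In elav5 against Canton-S the log2 change of 0.48 did not pass (95% interval -0.04 to 0.99, limma adjusted p = 0.188). The libraries of vri did not overlap there, which was so for 35.6% of all tested genes. The non-coding gene lncRNA:CR45730 overlaps vri on the opposite strand and held 0 to 0.718 normalised CPM over all libraries. The 5 neuroblast markers also rose in elav5/fne against Canton-S, by a median of 2.15. Epidermis and tracheal markers summed to 46.8 to 137 in elav5/fne, 21.4 to 87.8 in elav5 and 10.5 to 27.2 in Canton-S. Their part in the vri result was not tested.

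Pdp1 (chromosome 3L, 7811458 to 7867369, minus strand) held 897, 925 and 903 normalised CPM in elav5/fne, 1506, 1435 and 1327 in elav5, and 1417, 1543 and 1692 in Canton-S. Every elav5/fne library was below all others, and elav5 and Canton-S overlapped. Pdp1 fell by 0.77 on the log2 scale in elav5/fne against Canton-S (SE 0.09, limma adjusted p = 0.000132) and by 0.64 against elav5 (adjusted p = 0.000617), and passed in all 20 alternatives in both. In elav5 against Canton-S the log2 change was -0.12 (95% interval -0.33 to 0.08, adjusted p = 0.388). Pdp1 is also expressed in larval muscle. Of the 11 muscle markers, 5 rose and none fell in elav5/fne against Canton-S, where 25.8% of all tested genes rose. Without elav5 replicate 1 and elav5/fne replicate 3, 7 of them rose. The part of muscle RNA in the Pdp1 reads was not tested. With the ratio of vri to Pdp1 reads, chosen after the values were seen, the libraries of elav5/fne held 10.5, 10.1 and 10.4 vri reads for each 1000 Pdp1 reads, those of elav5 2.61, 1.68 and 1.87, and those of Canton-S 1.48, 0.913 and 1.13. The 3 genotypes did not overlap in this ratio. Each of the 3 comparisons gave an exact permutation p = 0.1, the smallest value possible with 3 against 3 libraries. Both genes already separated elav5/fne from Canton-S and from elav5, in opposite directions, so there this p was fixed in advance and adds no support. Clk and Pdp1 lie 35.9 kb apart on chromosome 3L.

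cry (chromosome 3R, 19212154 to 19215442, plus strand), the photoreceptor gene, held 61, 38 and 19 reads in elav5/fne, 0, 11 and 9 in elav5, and 11, 25 and 1 in Canton-S. These were 3.77, 2.04 and 1.21 normalised CPM in elav5/fne, 0, 0.718 and 0.589 in elav5, and 0.551, 1.26 and 0.0599 in Canton-S. The elav5/fne libraries lay above those of elav5 but overlapped those of Canton-S. cry did not pass in elav5/fne against Canton-S (log2 1.04, 95% interval 0.08 to 1.99, limma adjusted p = 0.0748), in elav5 against Canton-S (-0.15, -1.10 to 0.81, adjusted p = 0.835) or in elav5/fne against elav5 (1.18, 0.23 to 2.14, adjusted p = 0.0618). It passed in elav5/fne against Canton-S with the muscle covariate (log2 1.65, adjusted p = 0.0321), and also when elav5 replicate 1 and elav5/fne replicate 3 were left out (1.30, adjusted p = 0.0264). In elav5/fne against elav5 it passed in 2 of 19 alternatives, with the muscle covariate (1.42, adjusted p = 0.0201) and without elav5/fne replicate 3 (1.45, adjusted p = 0.0490). Canton-S replicate 2, the library with 258 normalised CPM of fat body markers, had the highest cry level of its genotype. Without it the log2 change in elav5/fne against Canton-S was 1.31. Any link between the fat body markers and cry was not tested. The last 9 bases of cry overlap the 3' end of vib on the opposite strand, which held 166 to 212 normalised CPM in all libraries and did not pass in any comparison. A non-coding gene, lncRNA:CR46393, lies over the start of cry on the same strand and was not analysed here. The 10 genes share no common 3' end structure in the annotation. The longest annotated 3' UTR was 4868 bases for Pdp1, 1571 for tim, 1503 for vri and 1414 for cwo, and 501 for per, 293 for Pdf, 219 for cyc and 80 for cry, beside a median of 320 over 8885 tested genes.

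By the likeness of log2 levels over the 9 libraries, the 3 genes closest to Pdf among 5983 genes averaging 10 normalised CPM or more were wde, Tmtc3 and CG10089 (Pearson r = 0.988, 0.988 and 0.985). Those closest to vri were ken, CG10462 and ci (r = 0.993, 0.992 and 0.992), and those closest to Pdp1 were CG8910, Bsg and Ih (0.990, 0.988 and 0.986). For cwo they were GstD2, CG15611 and SCaMC (0.988, 0.984 and 0.980), for cyc CtsF, PolI and Nthl1 (0.991, 0.987 and 0.983), and for per Ptpa, CG7382 and Den1 (0.961, 0.948 and 0.946). tim was closest to TppII (0.978), to a gene listed under its identifier alone, and to Drice (0.968). These values describe libraries that share genotype, depth and scaling. ci, for example, averaged 33.3 normalised CPM in elav5/fne, 5.95 in elav5 and 3.24 in Canton-S, and wde averaged 86.7 in elav5/fne, 114.7 in elav5 and 170.1 in Canton-S.

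The genes around the clock were described with lists of the known pathway. These lists were also chosen with earlier results of these data known, so their counts are descriptive only. Of the 12 kinase, phosphatase and degradation genes that set PER and TIM turnover, 3 fell (sgg, nmo and CkIIalpha), 1 rose (CkIIbeta) and 8 did not pass in elav5/fne against Canton-S, where 17.5% of all tested genes fell and 25.8% rose. The 4 calls among 12 are not above the 43.2% called over all tested genes. sgg, the GSK-3 kinase that phosphorylates TIM, averaged 314 ± 5.98 normalised CPM in elav5/fne, 551 ± 36.4 in elav5 and 695 ± 39.7 in Canton-S, and fell by 1.14 on the log2 scale in elav5/fne (limma adjusted p = 8.44e-06) and by 0.33 in elav5 (adjusted p = 0.0273, past the threshold in 12 of 20 alternatives, but 0.0507 when elav5 replicate 1 and elav5/fne replicate 3 were left out). nmo, a kinase that acts on PER, fell to 620 ± 85.3 in elav5/fne, against 1079 ± 97.4 in Canton-S (log2 -0.80, adjusted p = 0.000564). wdb, a phosphatase 2A subunit that acts on PER, was at 1042 ± 95.2 in elav5/fne and 1144 ± 33.0 in Canton-S and did not pass (log2 -0.14, adjusted p = 0.307). dco, the Doubletime kinase, fell in elav5 against Canton-S (-0.53, adjusted p = 0.00732) and was higher in elav5/fne than in elav5 (0.50, adjusted p = 0.00357), and was named after its values were seen.

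Of 10 tested transcriptional and translational regulators of the clock, 3 rose and 1 fell in elav5/fne against Canton-S (2 and 1 under TMM scaling), a share near the 43.2% of all tested genes called there. Eip75B, the nuclear receptor E75, which represses Clk, averaged 339 ± 18.9 normalised CPM in elav5/fne, 731 ± 41.6 in elav5 and 796 ± 49.9 in Canton-S, and it fell by 1.23 on the log2 scale in elav5/fne against Canton-S (limma adjusted p = 7.04e-06). kay, the fly Fos, which acts in the interlocked loop, rose to 201 ± 19.5 in elav5/fne (1.78, adjusted p = 0.000499) and to 118 ± 48.9 in elav5 (0.95, adjusted p = 0.0376), against 58.8 ± 14.5 in Canton-S. The elav5 call of kay was lost in 9 of 20 alternatives, including the fit that left out elav5 replicate 1 and elav5/fne replicate 3 (log2 0.64, adjusted p = 0.0603). nej, the CBP coactivator, and tyf, a translational activator of per, did not pass in elav5/fne (log2 0.06 and 0.12).

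Among 15 tested genes of clock neuron excitability and light input, 10 fell, 2 rose and 3 did not pass in elav5/fne against Canton-S, where 17.5% of all tested genes fell and 25.8% rose. Those that fell were channel genes and their partners, with norpA, the phospholipase C of phototransduction, as the only light-input gene (log2 -0.48). qsm, a light-response gene, and wake, a regulator of clock neuron excitability, rose (1.74 and 0.91), and the rhodopsin genes Rh5 and Rh6 did not pass (1.13 and 0.80). The list median was -0.66 beside 0.15 for all tested genes, and 9 fell when not counting elav5 replicate 1 and elav5/fne replicate 3, na being lost. These members outside the named set were chosen after their values were seen. qvr, which encodes the sleep regulator SLEEPLESS, fell to 25.5 ± 2.17 normalised CPM in elav5/fne, against 179 ± 3.54 in Canton-S (log2 -2.77, limma adjusted p = 5.25e-07). slo, a calcium-activated potassium channel gene, fell to 472 ± 34.4, against 1491 ± 60.8 in Canton-S (-1.66), and Ih, a hyperpolarisation-activated channel gene, to 442 ± 21.5, against 1176 ± 87.6 in Canton-S (-1.41). Mid1, also known as Nlf-1, a factor of the sodium leak channel, fell to 419 ± 19.5, against 795 ± 39.9 in Canton-S (-0.92). In elav5 against Canton-S, where 15.2% of all tested genes were called, only qvr passed in this list (-0.37, limma adjusted p = 0.0422). Its call was lost in 10 of 20 alternatives, including the fit without elav5 replicate 1 and elav5/fne replicate 3 (adjusted p = 0.0779). The 7 pan-neuronal markers, of which 5 fell in elav5/fne, had a median of -0.73.

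Signalling genes downstream of the PDF receptor fell or did not pass. Of 11 cAMP pathway genes, 8 fell and none rose in elav5/fne against Canton-S, where 17.5% of all tested genes fell, and the median was -0.65. The 7 pan-neuronal markers had a median of -0.73 in the same comparison, where 5 of them fell and none rose. A fall of this size was therefore not particular to the cAMP genes. Ac3, an adenylate cyclase coupled to PDFR in some clock neurons, fell to 56.9 ± 15.8 normalised CPM in elav5/fne, against 202 ± 28.7 in Canton-S (log2 -1.83, limma adjusted p = 6.77e-05). The protein kinase A subunit genes Pka-C1 and Pka-R1 fell by 0.66 and 0.74, the phosphodiesterase gene dnc by 0.66 and the G protein beta subunit gene Gbeta13F by 0.65. In elav5 against Canton-S 1 of the 11 passed, Pka-C1 (-0.31, limma adjusted p = 0.0351), where 15.2% of all tested genes were called and 7.04% fell. Its call was lost in 10 of 20 alternatives, including the fit without elav5 replicate 1 and elav5/fne replicate 3 (adjusted p = 0.0700).

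Of 6 genes for class B receptors and their other ligands, 3 fell and none rose in elav5/fne against Canton-S, where 43.2% of all tested genes were called and 17.5% fell. In elav5 against Canton-S, where 15.2% of all tested genes were called, the receptor gene Dh44-R2 was the only one of the 6 to pass (log2 -0.74, limma adjusted p = 0.0163). It did not pass in elav5/fne against Canton-S (-0.41, adjusted p = 0.0644). Dh31, a peptide whose receptor is related to PDFR, averaged 35.4 ± 3.31 normalised CPM in elav5/fne, 150 ± 18.4 in elav5 and 161 ± 6.90 in Canton-S, and it fell by 2.16 on the log2 scale in elav5/fne against Canton-S (limma adjusted p = 1.66e-06), while elav5 did not pass (-0.11, adjusted p = 0.558). Dh44, the corticotropin-releasing factor-like peptide gene, fell by 0.95 in elav5/fne. hec, a class B receptor gene, held 1 read over the 3 elav5/fne libraries and averaged 5.83 ± 0.805 in elav5 and 5.82 ± 0.845 in Canton-S, and it passed in elav5/fne against Canton-S (adjusted p = 1.61e-05). Of 9 tested peptides of other clock neurons and of the output pathway, 7 fell and none rose in elav5/fne against Canton-S, where 43.2% of all tested genes were called and 17.5% fell, and the list median was -1.61. AstC fell to 14.7 ± 2.59 in elav5/fne, against 68.4 ± 2.29 in Canton-S (-2.15), SIFa to 6.62 ± 1.16, against 40.0 ± 9.68 in Canton-S (-2.41), and sNPF to 37.6 ± 3.00, against 60.9 ± 7.06 in Canton-S (-0.68). NPF and ITP, peptides of some clock neurons, fell in both mutants. NPF, named with its values known, fell by 1.80 in elav5/fne (limma adjusted p = 3.52e-05) and by 0.67 in elav5 (adjusted p = 0.0286) against Canton-S. ITP fell to 89.0 ± 13.5 in elav5/fne and 96.0 ± 2.75 in elav5, against 170 ± 12.4 in Canton-S (-0.94 and -0.82, adjusted p = 0.00019 and 0.00286), and did not pass between the mutants (-0.12, adjusted p = 0.489). Of the 7 peptide processing and release genes, 4 fell and 2 rose in elav5/fne against Canton-S, where 17.5% of all tested genes fell and 25.8% rose. The genes that rose were dimm, a transcription factor of peptidergic cells, and Pal1, an amidation enzyme gene (log2 0.89 and 0.99). Pal2, an enzyme of peptide amidation, fell by 1.59 on the log2 scale against Canton-S. Cadps, a factor of dense-core vesicle release, fell by 1.53, and the carboxypeptidase D gene svr fell by 0.53. In elav5 against Canton-S, where 15.2% of all tested genes were called, 1 of the 7 passed. This was amon, which was higher there (log2 0.45, limma adjusted p = 0.0100). In elav5/fne against Canton-S amon was lower (-0.88, limma adjusted p = 5.15e-05).

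**Figure D3:**
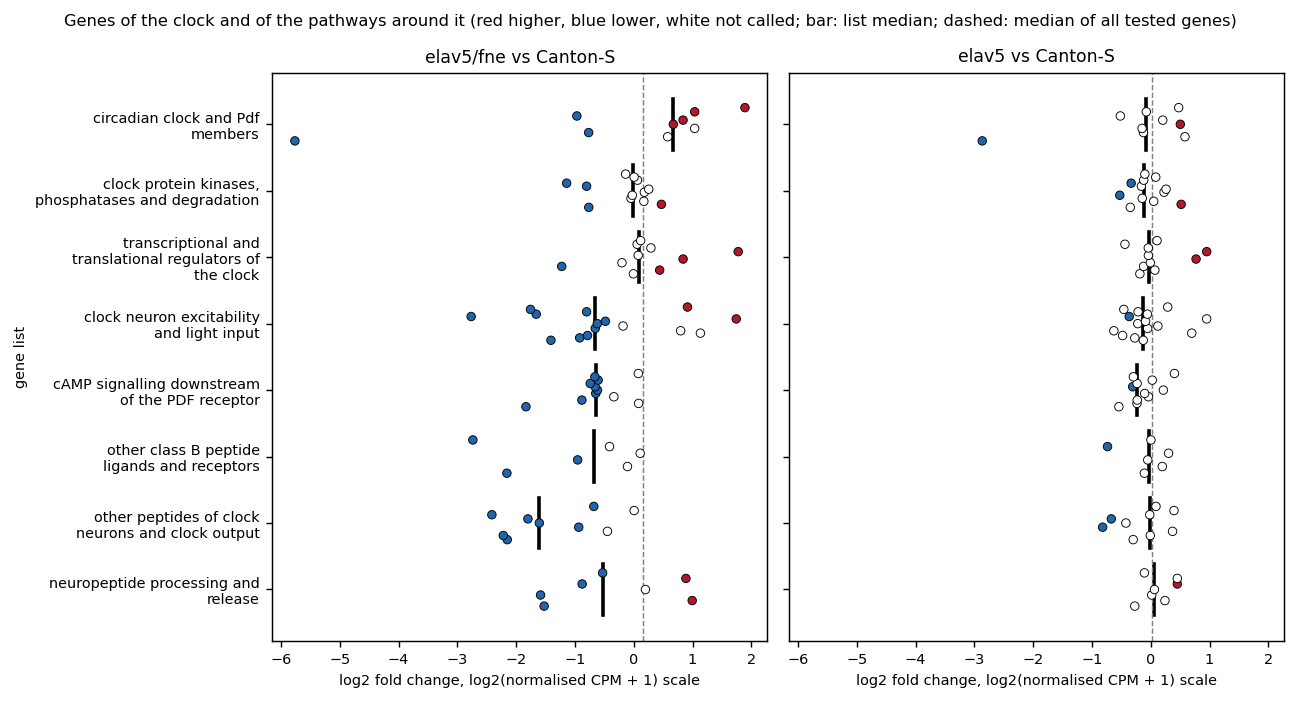
Log2 fold changes of the clock genes and of the genes of 7 pathway lists in elav5/fne against Canton-S (left) and elav5 against Canton-S (right), with 1 point per tested gene, red for called higher, blue for called lower and white for not called. Black bars are list medians and dashed lines the median of all tested genes (0.15 and 0.02), and the peptide list lies lowest in elav5/fne, with a median of -1.61, and at -0.02 in elav5.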

How the data were processed

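Per the labels' protocols, libraries were made from 40 ng of total RNA with the Lexogen QuantSeq REV kit, and the build was dm6 per the submitters' processing notes. The aligner, counter, annotation and whether counting used strand were not given in the sources used here. The deposited values are a signal: whole reads per gene divided by 1 size factor per library, since 100% of the values above 0 are whole multiples of their column's step within 0.1. Values were multiplied by 1e6 over the mean column total.

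Gene IDs were matched to BDGP6.54 symbols (17251 of 17421), and 3 listed symbols through RefSeq synonyms; scro, para and nvd were not matched. limma 3.58.1 with a trend was fitted to log2(normalised CPM + 1) in 1 fit over 9 libraries, for genes averaging 1 or more. A gene was called at an adjusted p under 0.05. On recovered reads edgeR 4.0.16 called 4089, 1384 and 2498 genes in elav5/fne against Canton-S, elav5 against Canton-S and elav5/fne against elav5, where limma called 4056, 1428 and 2888. The pipeline was tested on simulated data. Members and lists were chosen with earlier results of these data known.

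Named from each list were the 3 genes with the highest Canton-S mean and the 2 most significant for elav5/fne against Canton-S. Of these 27 genes 18 overlap another gene, 9 of them in the same direction, and since the use of strand is unknown, neighbours may add to their reads. Other list genes, such as dco, NPF, Dh44-R2, amon, dimm and Pal1, were named outside this rule with their values known. Likeness used Pearson r over 9 libraries. Alternatives were pseudocounts, filters, scalings, DESeq2 1.42.0, robust eBayes, a replicate block, fits over 2 genotypes, a muscle covariate and left-out libraries. R 4.3.3, Python 3.11.15 and scipy 1.17.1 were used.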

Additional observations from a re-analysis of the deposited data

How the results depend on the processing

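Of 525 recomputed changes of single genes, 494 kept their direction and their side of the threshold, 17 kept direction but lost the call, 4 gained one and 10 changed sign, none of the latter called. The counts of called clock and Pdf genes were 4 in elav5/fne against Canton-S and 3 in elav5/fne against elav5 with a minimum mean of 5, where only 4 of the genes were tested. With 1 library left out the counts ranged over 6 to 7 in elav5/fne against Canton-S, 1 to 2 in elav5 against Canton-S and 3 to 6 in elav5/fne against elav5. cry in elav5 against Canton-S changed sign with the muscle covariate (0.23), was 0.094 when elav5 replicate 1 and elav5/fne replicate 3 were both left out, and ranged over -0.42 to 0.12 with 1 library left out. tim in the same comparison ranged over -0.26 to 0.048. Pdfr in elav5/fne against elav5 was at 0.066 with library totals and ranged over -0.14 to 0.11. The cause was not tested.

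Deviations from the genotype mean correlated between -0.697 and 0.199 for equal replicate numbers and between -0.565 and 0.673 for unequal ones. The values of -0.697 and 0.673 both involve elav5 replicate 1, which is high in muscle and gut markers. These correlations show no pairing by replicate number, but with 3 libraries per genotype they cannot exclude a shared preparation. With the replicate block 7, 2 and 4 of the 9 genes passed, cyc being lost in elav5/fne against elav5 (log2 0.63, adjusted p = 0.0638). Over all genes in elav5 against Canton-S the block gave 909 calls, DESeq2 2148 and leaving out 1 library 706 to 1335, in place of 1428, and scaling to library totals gave 559 higher and 1182 lower in place of 767 and 661. For elav5/fne against elav5 these splits were 1305 and 1417 with TMM, in place of 1734 and 1154. Clk averaged under 1 normalised CPM and had no test able to pass.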

Other observations

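elav5/fne replicate 2 held 25 of the 30 Pdf reads of its genotype. The same library had the highest levels of elav (71.3 normalised CPM, against 30.4 and 34.2 in elav5/fne replicates 1 and 3) and of fne (522, against 325 and 278). Its tim and per levels (4.57 and 2.31) lay within or near those of the other elav5/fne libraries.

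elav5 replicate 1 had the lowest per (2.64 normalised CPM) and the highest tim (2.12) and vri (3.92) of its genotype, and no cry read. Its tim to per ratio of 0.805 lay apart from 0.224 and 0.242 in the other elav5 libraries, and its muscle and gut marker sums were the highest of its genotype (6952 and 726). Whether these values are related was not tested.

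Within the elav5/fne libraries, cry was at 3.77, 2.04 and 1.21 normalised CPM in replicates 1, 2 and 3, while muscle markers summed to 1619, 4019 and 8080 and neuroblast markers to 315, 278 and 211. With 3 libraries no relation between these was tested.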
